A study of Homo sapiens with 183 samples.

Results

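Zinc finger genes with symbols from ZNF500 to ZNF799 were followed across a series of bulk RNA-seq libraries from human cancer cell lines. A gene was a member if its symbol fell in this range, with or without a closing letter, if it stood in all 8 expression tables, and if its mean over all libraries was at least 1 TPM (an abundance scaled for transcript length and for library total). ZNF750 was left out by the rule. Of 220 symbols that matched, 188 reached this level, out of 19875 gene names and 183 libraries in all. ZNF793 (1.127 TPM) and ZNF546 (1.217 TPM) lay just inside the limit, and ZNF709 (0.9988 TPM) and ZNF662 (0.989 TPM) just outside it. Another 261 ZNF symbols at the same level served for comparison.

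The series asks how KLF5, a transcription factor of epithelial cells, and the ATPases RUVBL1 and RUVBL2 control gene expression in pancreatic ductal adenocarcinoma (PDAC). In the knockout experiments, Cas9-expressing AsPC-1, SUIT-2, CFPAC-1, T3M-4 and BxPC-3 PDAC cells carried guides against KLF5, RUVBL1, RUVBL2, CHD4, CDK1, RPA3 or SERPINB5 and were collected on day 5 (2 to 6 libraries a group), each set against sgRosa, a guide to a mouse locus, in the same line and experiment (2 or 4 libraries). The other arm used CB-6644, a small-molecule inhibitor of the RUVBL1/2 ATPase, against its solvent DMSO for 24 h. AsPC-1 and T3M-4 received it while carrying an empty lentiviral vector (EV) or a complementary DNA for the inhibitor-resistant variant RUVBL1 A62T or RUVBL2 dF109, with 3 CB-6644 libraries and 1 DMSO library for each vector. The 3 DMSO libraries of a line were pooled as its control. Parental T84 (colorectal carcinoma), A-375 (melanoma), H1048 (small-cell lung cancer) and RH30 (alveolar rhabdomyosarcoma) cells received CB-6644 or DMSO with 4 libraries each. KLF5, RUVBL1, RUVBL2 and Rosa knockouts were made with 2 independent guides each, and the labels do not say which guide a library carries, so the spread within such a group includes any difference between guides. Replicates are described as biological for the knockouts, the labels do not say whether they came from separate cultures, and p-values measure the spread between these libraries, which may be technical. Endogenous RUVBL1 and RUVBL2 remained in the variant-carrying cells, and the knockout cells were pools in which a guide need not cut every cell.

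Most human C2H2 zinc finger proteins bind DNA through tandem finger repeats, and the largest class carries a KRAB domain at its amino end. The KRAB domain recruits TRIM28 (KAP1), which brings the histone methyltransferase SETDB1 and HP1 proteins to silence transposable elements and some genes. KRAB zinc finger genes multiplied by tandem duplication and stand in large clusters, above all on chromosome 19. RUVBL1 and RUVBL2 form a hexameric ring found in the INO80, SRCAP and TIP60 chromatin complexes and in a chaperone that assembles protein and RNA-protein machines.

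The members followed that architecture. In the GENCODE annotation of GRCh38, 187 of 188 members were found, 186 of them with a protein-coding product and ZNF788P as a pseudogene. Chromosome 19 held 97 members, chromosome 16 held 14 and chromosome 7 held 10. A short KRAB A-box pattern was present in the main protein of 105 members, 76 of them on chromosome 19, and absent from 81. The median number of C2H2 finger matches was 10 with the pattern and 8 without it, and 5 members had none. Members with the pattern were expressed at lower levels, with a median of 4.45 TPM over all libraries against 10.6 TPM without it. The largest clusters lay on chromosome 19. A cluster of 17 members from 51804816 to 53461862, all with the KRAB pattern, included ZNF610 and ZNF761. A cluster of 28 members from 55476617 to 58431736 at the end of the long arm held 17 with the pattern.

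In that terminal cluster, ZNF551, ZNF586, ZNF552 and ZNF587B lie close together and were among the members called lower in most comparisons, while ZNF530, a neighbour, was called higher. Their promoters are shown because the members with opposite responses share the same short words. Each window covers 250 bases before to 30 after the RefSeq start on GRCh38.p14, 5′ to 3′, and ZNF530 was chosen after its values were seen. Capitals mark the words AACTACATTA and ACTTCCGGCG, the stretches of at least 9 letters that ZNF551, ZNF586 and ZNF587B have in common.
ZNF551 (chr19:57681727-57682006, plus strand): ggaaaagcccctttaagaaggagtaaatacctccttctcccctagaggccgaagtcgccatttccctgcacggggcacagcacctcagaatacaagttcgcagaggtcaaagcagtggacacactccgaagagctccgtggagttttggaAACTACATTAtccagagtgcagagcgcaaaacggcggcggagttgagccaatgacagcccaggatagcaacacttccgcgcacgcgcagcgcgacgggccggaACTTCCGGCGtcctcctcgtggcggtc
ZNF586 (chr19:57769426-57769705, plus strand): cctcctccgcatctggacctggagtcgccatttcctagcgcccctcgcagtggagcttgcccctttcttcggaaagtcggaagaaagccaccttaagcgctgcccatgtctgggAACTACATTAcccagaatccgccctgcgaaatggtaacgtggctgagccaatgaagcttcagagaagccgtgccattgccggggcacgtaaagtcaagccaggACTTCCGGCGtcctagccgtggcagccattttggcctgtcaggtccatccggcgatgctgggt
ZNF587B (chr19:57830049-57830328, plus strand): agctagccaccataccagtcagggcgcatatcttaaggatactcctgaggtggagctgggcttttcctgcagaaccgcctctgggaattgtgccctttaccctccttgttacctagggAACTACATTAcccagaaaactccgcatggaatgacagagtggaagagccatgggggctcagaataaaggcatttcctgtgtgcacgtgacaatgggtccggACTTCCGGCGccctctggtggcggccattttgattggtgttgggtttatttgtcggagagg
ZNF530 (chr19:57599635-57599914, plus strand): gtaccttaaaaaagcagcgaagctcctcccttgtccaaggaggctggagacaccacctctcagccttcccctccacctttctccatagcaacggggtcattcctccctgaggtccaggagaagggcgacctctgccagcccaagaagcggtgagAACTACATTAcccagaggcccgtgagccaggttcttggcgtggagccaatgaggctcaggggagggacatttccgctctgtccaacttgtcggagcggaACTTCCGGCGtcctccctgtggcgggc
The word AACTACATTA stood on either strand of 29 of 35115 RefSeq promoter windows of this length (0.0826%). Among 200 windows of 158 members it stood in 7, of ZNF530, ZNF551, ZNF586, ZNF587, ZNF587B, ZNF749 and ZNF772, all of them in the terminal cluster. The word ACTTCCGGCG, which reads GGAA on the other strand, as do sites of ETS factors, stood in 214 windows (0.609%) and in 13 of the 200 member windows (6.5%). Both words were picked because ZNF551, ZNF586 and ZNF587B hold them, so the choice itself raises their share among member windows. The 2 words do not overlap, and ZNF530 holds both. ZNF552 has no entry in the promoter table. The annotated span of ZNF586 (57769655 to 57819939, plus strand) covers ZNF552 (57803841 to 57814913, minus strand) and reaches the GENCODE start of ZNF587B (57819721). The RefSeq start used for the ZNF587B promoter above lies downstream of the end of ZNF586. The strand setting of the quantification is not given in the sources used here, so reads from shared stretches of these genes cannot be told apart.

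The members with the highest mean over all libraries, treated ones included, were ZNF664, ZNF706, ZNF593, ZNF511 and ZNF622. Their levels in control cells follow. ZNF664, a short protein of finger repeats, averaged 219 ± 8.82 TPM (SD, n = 4) in H1048 and 70.2 ± 3.91 TPM (n = 6) in BxPC-3. ZNF706 was highest in AsPC-1, at 136 ± 5.15 TPM (n = 14), followed by T84 at 94.1 ± 5.49 TPM, and was lowest in RH30 at 28.4 ± 1.05 TPM. ZNF593 and ZNF622, both human relatives of yeast factors that act on the large ribosomal subunit in the cytoplasm, ranged from 25.5 TPM (CFPAC-1) to 109 TPM (BxPC-3) and from 27.7 TPM (SUIT-2) to 74.1 TPM (T3M-4). ZNF511 ranged from 41.0 TPM in T3M-4 to 92.2 TPM in AsPC-1. Neighbours in these orders often overlapped, as ZNF622 did in H1048 (29.4 ± 1.33 TPM) and RH30 (29.2 ± 1.33 TPM). These levels come from separate tables for most PDAC lines and are a description.

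The 5 members with the widest range between lines were ZNF655, ZNF512B, ZNF556, ZNF711 and ZNF595, each under 1 TPM in at least 1 line. ZNF655 was close to 0 in the 4 T84 DMSO libraries (0, 0.094, 0.109 and 0.188 TPM) and reached between 18.3 TPM in T3M-4 and 94.3 TPM in CFPAC-1 elsewhere. ZNF512B averaged 0.637 TPM in T84 and 0.327 TPM in RH30, against at least 15.5 TPM (AsPC-1) in each of the other 7 lines. ZNF556 was low in most lines, with 30.8 ± 0.947 TPM in RH30, 10.5 ± 1.08 TPM in H1048, 2.06 ± 0.304 TPM in A-375 and at most 1.1 TPM in the other lines. ZNF711, an X-linked gene in which loss-of-function changes cause intellectual disability, stood at 36.0 ± 1.05 TPM in RH30, 9.38 TPM in CFPAC-1 and 0.283 TPM in H1048. ZNF595 fell from 38.1 ± 1.57 TPM in H1048 to 0.373 ± 0.207 TPM in RH30. The median member ranged from 3.47 TPM in AsPC-1, where 29 members were under 0.5 TPM, to 12.7 TPM in H1048, where 6 were. Within the table of T84, A-375, H1048 and RH30, limma's moderated F test called 186 of 187 members different between DMSO cells (adjusted p under 0.05), against 99.5% of all genes, so line differences were no more frequent here than elsewhere.

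**Figure D1:**
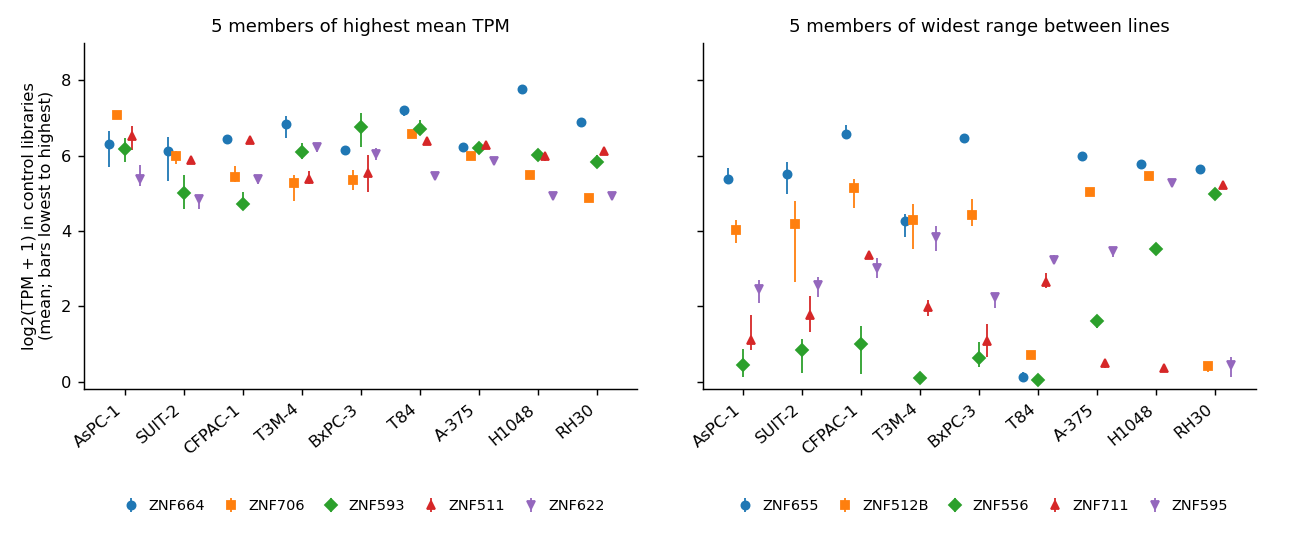
Level of 10 members in the control libraries (sgRosa or DMSO) of 9 cell lines, as log2(TPM + 1); points are means and bars run from the lowest to the highest library. ZNF664, ZNF706, ZNF593, ZNF511 and ZNF622 (left) stayed high in every line, whereas ZNF655 and ZNF512B (right) were near 0 in T84 and ZNF556 and ZNF711 were highest in RH30.

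Across the series, libraries held between 11292 and 14024 genes at 1 TPM or more. TPM tables keep no read depth, so no counting interval can be given. No pair among 230 pairs of libraries within groups was a duplicate, since at least 15671 genes differed in each. The marker list of RH30 (MYOD1, MYOG and DES) summed to 1437 TPM in RH30 and to at most 0.198 TPM elsewhere. The list of H1048 (POU2F3, GFI1B and ASCL2) summed to 571 TPM in H1048 and to at most 37.6 TPM elsewhere. Of that list, POU2F3 held 476 TPM in H1048, and ASCL2 was lower in H1048 (8 TPM) than in T84 (36.1 TPM). The list of A-375 rested on SOX10 (235 TPM) and MITF (17.3 TPM, against 24.5 TPM in CFPAC-1). PMEL (0.914 TPM) was lower in A-375 than in each other line, and MLANA (1.23 TPM) was lower than in H1048 (1.84 TPM). That of T84 (CDX2, CDH17 and VIL1) summed to 690 TPM in T84 and to 1061 TPM in AsPC-1. Leukocyte markers summed to between 5.9 TPM in H1048 and 148 TPM in CFPAC-1, most of it CD68, with PTPRC at 0.765 to 9.35 TPM and CD3E at 0 to 0.725 TPM. Their part in the results was not tested. RUVBL1 messenger RNA was lower in all RUVBL1 knockout libraries than in their controls (log2 change −1.87 to −1.14), and so was RUVBL2 in its knockouts (−1.76 to −1.24). KLF5 messenger RNA was called lower in CFPAC-1 (−0.41) and higher in T3M-4 experiment 2 (0.78) and AsPC-1 experiment 1 (0.53), with overlapping libraries in the last and in the other 5 KLF5 comparisons; a Cas9 cut need not lower a messenger RNA.

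CB-6644 raised more members than it lowered in each of the 6 lines without a variant, as it did for genes in general. In A-375, 112 of 183 members tested rose and 41 fell past an adjusted p of 0.05 (limma on log2(TPM + 1)), against 51.5% and 29.7% of all genes. The counts were 92 higher and 51 lower of 181 in H1048 (all genes 53.9% and 24%), and 100 and 42 of 181 in RH30 (50.4% and 27.3%). In T84, 88 rose and 33 fell of 167 (47.2% and 24.2%). AsPC-1 with EV had 85 higher and 17 lower of 150 (47.2% and 17.2%), and 49 and 17 with the DMSO library of the same vector as the only control. T3M-4 with EV had 40 higher and 21 lower of 176 (19.1% and 15.2%), and 27 to 74 higher when 1 DMSO library was left out, the extremes coming without the dF109 and without the A62T DMSO library. With only the DMSO library of EV as control, T3M-4 had 56 higher and 12 lower. The shares of all genes with that control are not given here, and their medians were 0.10 in AsPC-1 and 0.16 in T3M-4. The member shares with the main controls lie near the background of all genes. They also lie near those of the other ZNF symbols, of which 60.1% were higher and 17.1% lower in A-375.

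The split between rises and falls depended on scaling. The median of all genes tested stood above 0 in TPM (0.04 to 0.19 on the log2 scale), and after median-of-ratios scaling, which centres it near 0, rises and falls numbered 93 and 62 in A-375 (all genes 36.4% and 44.1%) and 50 and 73 in H1048 (35.2% and 40%). They numbered 72 and 66 in RH30 (35% and 41.2%), 70 and 49 in T84 (31.4% and 39.6%), 51 and 34 in AsPC-1 (25.4% and 36.6%) and 38 and 34 in T3M-4 (16.5% and 25.2%). Calls of higher and lower below are against 0 in TPM unless scaling is named, and need to be read beside the shares or median of all genes.

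**Figure D2:**
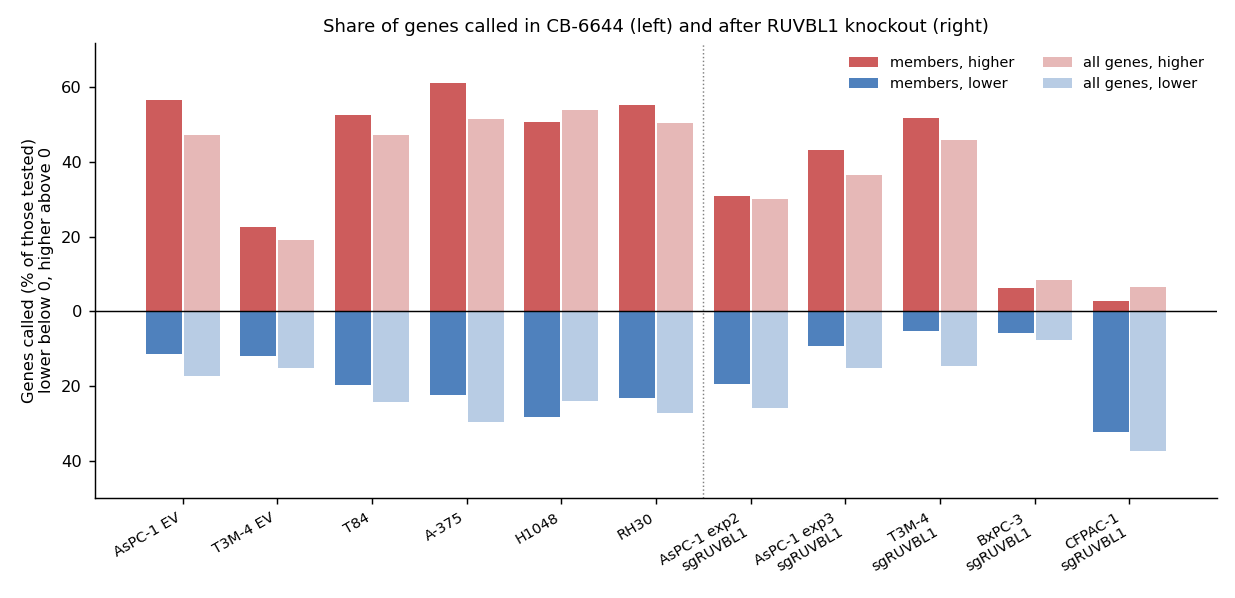
Share of tested members (dark bars) and of all tested genes (pale bars) called higher (above 0) or lower (below 0), in CB-6644 against DMSO in 6 lines without a variant and after RUVBL1 knockout in 5 experiments. The dark and pale bars are of similar height in most comparisons, from 61.2% of members and 51.5% of genes higher in A-375 to 2.82% and 6.54% in CFPAC-1.

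Members with the KRAB pattern rose more often than those without it. In A-375, 79 of 104 with the pattern were higher and 10 lower, with a median log2 change of 0.50. Without it, 31 of 77 were higher and 31 lower, with a median of −0.00. Among all genes, 51.5% were higher and 29.7% lower, with a median of 0.16. The medians with and without the pattern were 0.38 and −0.01 in T84, 0.34 and −0.01 in RH30, 0.25 and −0.02 in T3M-4, 0.40 and 0.20 in AsPC-1 and 0.23 and 0.00 in H1048. Falls were more frequent among members without the pattern than among those with it. They numbered 19 of 78 against 2 of 97 in T3M-4 (all genes 15.2%). In T84 they numbered 26 of 76 against 7 of 90 (24.2%). After scaling, the medians in A-375 were 0.31 and −0.21. In H1048, 34 rose and 29 fell with the pattern after scaling, while 15 rose and 44 fell without it (all genes 35.2% and 40%). The contrast was present on chromosome 19 (A-375 medians 0.55 and −0.01) and on other chromosomes (0.47 and 0.00). It was also present among members averaging 5 TPM or more (0.58 and 0.01), and with a looser KRAB pattern that 121 members carry (0.46 and −0.00). These groupings were compared after the values were seen and are a description, with no test. The lower control level of KRAB members (median 5.29 TPM against 11.8 TPM in A-375 DMSO) moves with the split.

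**Figure D3:**
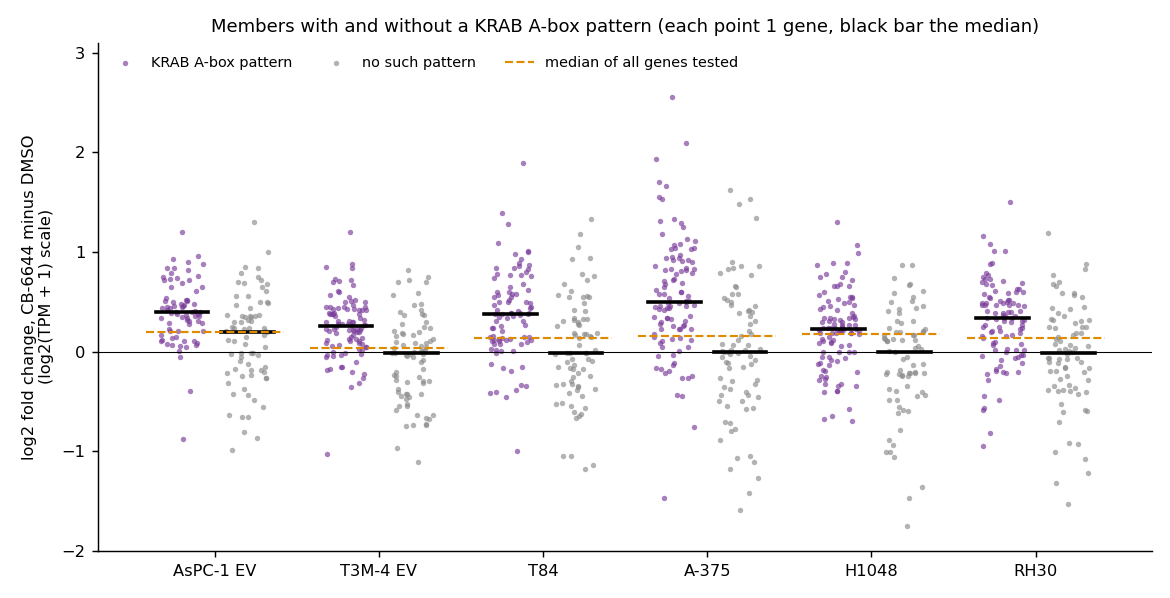
log2 fold change of each tested member in CB-6644 against DMSO, by line, for members with (purple) and without (grey) the KRAB A-box pattern; black bars are medians and the dashed line is the median of all genes. In A-375 the median was 0.50 with the pattern and −0.00 without it, and the purple median lies above the grey one in all 6 lines.

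In the 17-member cluster, rises outnumbered falls in each of the 6 lines, as they did for all genes. In A-375, 14 of its 17 members rose and none fell (all genes 51.5% and 29.7%), and the median change was 1.04. T84 had 13 higher and 0 lower of 17 (47.2% and 24.2%), and T3M-4 9 and 0 of 17 (19.1% and 15.2%). AsPC-1 had 6 and 0 of 11 (47.2% and 17.2%). H1048 had 11 and 3 of 17 (53.9% and 24%), and RH30 10 and 2 of 15 (50.4% and 27.3%). ZNF610, a KRAB zinc finger gene of this cluster, was the leading riser among the members in T84, RH30 and T3M-4 with EV, and rose further in A-375. In A-375 its DMSO libraries held 0.0916, 0.103, 0.219 and 0.242 TPM and its CB-6644 libraries 3.57, 3.71, 3.96 and 4.7 TPM (log2 change 2.1 ± 0.09 SE, adjusted p = 3.3e-09). In T84 it went from 2.34, 2.62, 2.99 and 3.12 TPM to 12.6, 12.6, 13.3 and 13.4 TPM (1.90 ± 0.08, adjusted p = 4.8e-11). RH30 showed 2.51, 2.9, 3.34 and 3.58 TPM in DMSO and 10.1, 10.2, 10.6 and 11 TPM in CB-6644 (1.5 ± 0.08, adjusted p = 5.2e-09). No CB-6644 library overlapped a DMSO library of the same line. In T3M-4 the DMSO libraries held 0.554, 0.576 and 0.976 TPM and the CB-6644 libraries 2.73, 2.89 and 3.08 TPM with EV (1.2 ± 0.13, adjusted p = 6.6e-05).

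The terminal cluster of 28 members was mixed, with 13 higher and 10 lower of 27 in A-375 (all genes 51.5% and 29.7%). It had 9 and 13 of 25 in T84 (47.2% and 24.2%) and 12 and 13 of 28 in RH30 (50.4% and 27.3%). Of its 7 holders of AACTACATTA, ZNF530 and ZNF587 were called higher in some lines, while ZNF551, ZNF586, ZNF587B, ZNF749 (4 lines) and ZNF772 (3 lines) were called only lower. ZNF530, a KRAB member, rose in all 6 lines. In A-375 it went from 6.07, 6.34, 7.89 and 8.15 TPM to 19.7, 22.1, 23.8 and 23.8 TPM (log2 change 1.53 ± 0.09, adjusted p = 3.2e-08). ZNF586, whose promoter holds the same 2 words, fell in all 6. Its A-375 libraries held 12.8, 13.2, 13.4 and 13.5 TPM in DMSO and 3.55, 4.22, 4.38 and 4.5 TPM in CB-6644 (−1.47 ± 0.06, adjusted p = 2.7e-09). ZNF587B had the largest fall of any member in RH30, from 8.27, 8.81, 8.97 and 9.35 TPM to 2.21, 2.42, 2.48 and 2.59 TPM (−1.52 ± 0.07, adjusted p = 6.3e-10). ZNF551 fell in 5 lines, with a change of −0.06 (adjusted p = 0.67) in AsPC-1, where it was called lower after scaling (−0.24). ZNF587 rose in 4 lines (0.62 in A-375), and after scaling in A-375 alone (0.41). ZNF587 and ZNF587B are near-identical copies in part, and so are ZNF585A and ZNF585B, and a pseudoaligner could divide reads between such copies unevenly.

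**Figure D4:**
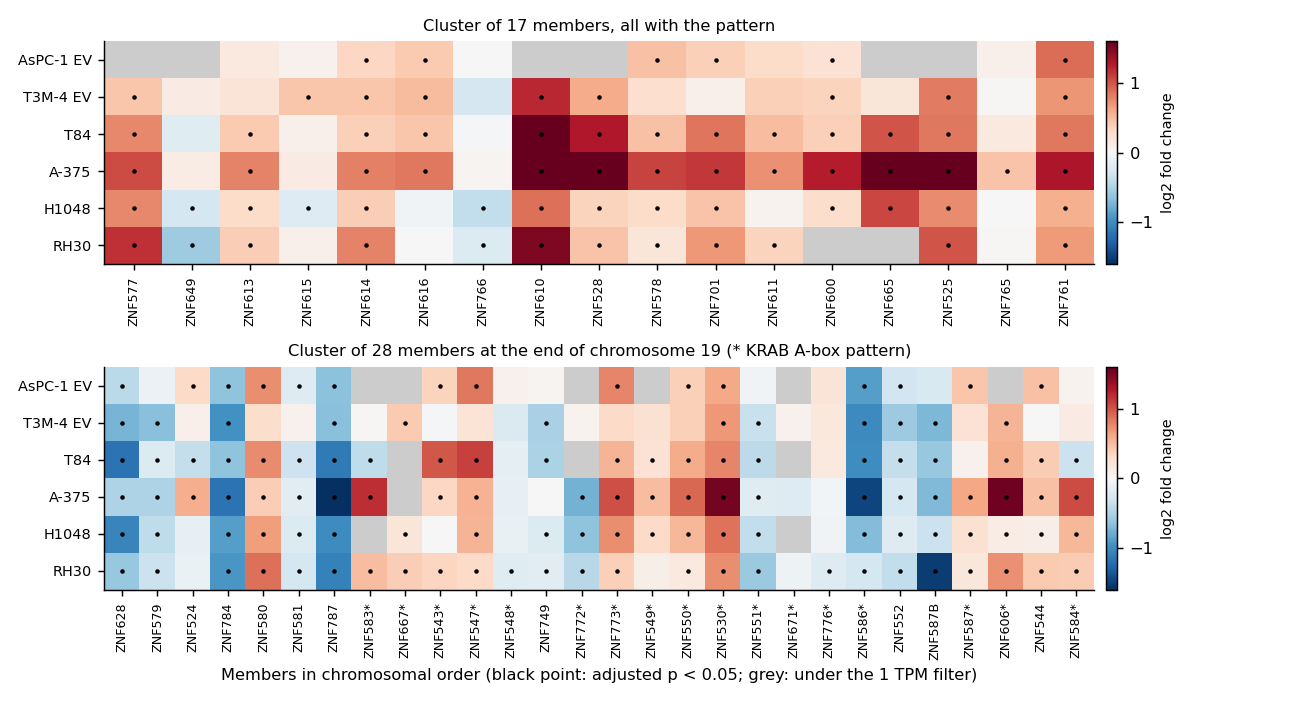
log2 fold change in CB-6644 against DMSO for the 17-member cluster (top) and the 28-member terminal cluster (bottom) of chromosome 19, with genes in chromosomal order, 1 row per line, and a black point where the adjusted p was under 0.05. Rises (red) fill the upper map, with a median of 1.04 in A-375, whereas columns of rises such as ZNF530 and of falls (blue) such as ZNF586 alternate in the lower map.

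Across the 6 lines, whose libraries are all different, 137 members were tested in each, and 19 were higher in every line (13.9%) while 9 were lower in every line (6.57%). Among all 10024 genes tested in each, 10.6% were higher and 5.48% lower in every line, and among 198 other ZNF symbols 12.1% and 2.02% were. After scaling, 10 members were higher and 20 lower in every line, and the share of all genes was not counted over every line. Those higher were ZNF510, ZNF519, ZNF530, ZNF554, ZNF557, ZNF563, ZNF585A, ZNF585B, ZNF589, ZNF596, ZNF614, ZNF629, ZNF654, ZNF664, ZNF684, ZNF707, ZNF708, ZNF761 and ZNF789, and 14 of the 19 carry the KRAB pattern. ZNF664 and ZNF708 were called higher in 2 lines each after scaling. Those lower were ZNF511, ZNF552, ZNF586, ZNF628, ZNF639, ZNF678, ZNF692, ZNF784 and ZNF787, of which 1 carries the pattern and 3 the looser one, and all 9 stayed lower in 6 of 6 lines after scaling. ZNF628, ZNF784, ZNF787, ZNF586 and ZNF552 lie in the terminal cluster. These 28 were picked by this outcome, so their values under CB-6644 are a description.

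ZNF563, a KRAB member of the chromosome 19 cluster near 12 Mb, made the largest rise of any member. Its A-375 libraries held 2.69, 3.13, 3.29 and 3.37 TPM in DMSO and 21, 22, 24.4 and 25.2 TPM in CB-6644 (log2 change 2.55 ± 0.07, adjusted p = 1.2e-10), and its smallest change among the 6 lines was 0.83. ZNF678, a multi-finger gene on chromosome 1, made the largest fall. In H1048 it went from 22.4, 23.4, 23.6 and 24.3 TPM to 5.92, 5.94, 6.23 and 6.93 TPM (−1.75 ± 0.06, adjusted p = 1.9e-10). ZNF787 led the falls in A-375, from 29.5, 30, 33 and 35.7 TPM to 9.09, 9.91, 10.1 and 10.6 TPM (−1.59 ± 0.07). ZNF628 led in T84, from 4.25, 4.42, 4.48 and 5.4 TPM to 1.19, 1.44, 1.58 and 1.75 TPM (−1.18 ± 0.10). All of these groups were separate. ZNF511 led in AsPC-1, where DMSO held 79.2, 89.9 and 93.7 TPM and CB-6644 with EV 42.9, 43.1 and 44.4 TPM (−0.99 ± 0.07, adjusted p = 3.8e-07). ZNF692 led in T3M-4, though its 3 CB-6644 libraries were spread over 7.95, 15.5 and 19.3 TPM against 25.6, 31.6 and 33.3 TPM in DMSO (−1.1 ± 0.23, adjusted p = 0.0041). The leading risers in the remaining lines were ZNF788P in H1048 (0.962 to 1.34 TPM in DMSO, 5.54 to 8.1 TPM in CB-6644, 1.83 ± 0.11) and ZNF596 in AsPC-1 (1.13 to 1.53 TPM against 4.25 to 5.33 TPM, 1.3 ± 0.10).

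The response was not the same in each line. In the table of T84, A-375, H1048 and RH30, the F test of line by treatment called 165 of 187 members, against 86.2% of all genes. ZNF627 rose in AsPC-1 (0.68), T3M-4 (0.43), T84 (0.57), A-375 (0.58) and RH30 (0.63) and had a change of −0.08 in H1048 (adjusted p = 0.11), where it was called lower after scaling (−0.29).

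The resistance variants test whether a change needs a RUVBL1/2 complex without the variant. With EV and CB-6644 set directly against a variant and CB-6644, 46 members were higher and 19 lower in EV than in A62T in AsPC-1 (all genes 32.3% and 18.9%), and 34 and 28 against dF109 (26.3% and 20.9%). In T3M-4, 6 were higher and 78 lower in EV than in A62T (9.21% and 41.4%), and 0 and 52 against dF109 (4.86% and 29.8%, limma). Against dF109, 2 were higher at an unadjusted p under 0.05. The 52 became 20 without dF109 CB-6644 replicate 2, and the 78 became 49 without A62T CB-6644 replicate 2. After scaling, T3M-4 gave 21 higher and 36 lower against A62T (20.6% and 22.7%), and 6 and 25 against dF109 (11.8% and 14.2%).

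The 9 members lower in 6 lines were followed into these comparisons, where their median was −0.63 (A62T) and −0.40 (dF109) in AsPC-1, beside 0.09 and 0.04 for all genes, and −0.87 and −0.67 in T3M-4, beside −0.27 and −0.24. All 9 members lower in 6 lines were lower in EV than in A62T in AsPC-1 and in both variants in T3M-4, and 8 of 9 were lower than in dF109 in AsPC-1, the exception being ZNF552 (−0.17, adjusted p = 0.21). These comparisons share the EV CB-6644 libraries that took part in choosing the 9. ZNF586 shows the pattern in single libraries. In T3M-4 its DMSO libraries held 10.9, 11.4 and 12 TPM, the EV CB-6644 libraries 4.67, 4.68 and 6.13 TPM, the A62T CB-6644 libraries 9.81, 10.1 and 11 TPM and the dF109 CB-6644 libraries 11.4, 11.4 and 11.8 TPM. EV lay below both variants (−0.88 ± 0.11, adjusted p = 0.00027, and −1.03 ± 0.11, adjusted p = 0.00054), and neither variant was called different from DMSO in TPM. After scaling, which removes a median of all genes of 0.33 with A62T and 0.29 with dF109, both variants were called below DMSO (−0.50 and −0.31). In AsPC-1, ZNF586 averaged 1.85 ± 0.108 TPM with EV, 3.56 ± 0.185 TPM with A62T and 3.56 ± 0.128 TPM with dF109 in CB-6644 (SD, n = 3), beside 3.66 to 5.0 TPM in DMSO. ZNF678 likewise held 1.16 ± 0.236 TPM with EV, 2.94 ± 0.308 TPM with A62T and 2.44 ± 0.209 TPM with dF109 in T3M-4.

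The 19 members higher in 6 lines had medians of 0.36 (A62T) and 0.23 (dF109) in AsPC-1 and of −0.05 and −0.10 in T3M-4, above the all-gene medians just given in each case, and no test compared the lines. Of the 19 members higher in 6 lines, 11 were higher in EV than in A62T (all genes 32.3%) and 9 than in dF109 (26.3%) in AsPC-1. In T3M-4 the counts were 1 and 0 (9.21% and 4.86%). In each line, 1 was lower in EV than in dF109 (all genes 20.9% in AsPC-1 and 29.8% in T3M-4). The EV CB-6644 libraries compared here also took part in choosing the 19, so the choice itself favours higher values in EV. Against pooled DMSO, CB-6644 with a variant raised 112 of 176 members with A62T (all genes 45.4%; 2 lower, 4.6%) and 98 with dF109 (34.3%; 1 lower, 3.34%) in T3M-4, and 19 of 150 with A62T (10.8%; 1 lower, 1.98%) and 52 with dF109 (29.3%; 3 lower, 4.1%) in AsPC-1. The T3M-4 counts fell to 35 higher and 13 lower with A62T (all genes 10.3% and 18.7%) and to 32 and 15 with dF109 (8.59% and 15.9%) after scaling. With the DMSO library of the same vector as the only control, 0 were higher with A62T in either line, 65 with dF109 in AsPC-1 and 98 with dF109 in T3M-4. The shares of all genes with that control are not given here. With A62T, the member medians were 0.15 in AsPC-1 and 0.24 in T3M-4, beside 0.10 and 0.15 for all genes. With dF109 they were 0.31 and 0.52, beside 0.23 and 0.32. Whether the variants differ in this was not tested. Leaving out the dF109 DMSO library gave 71 higher with A62T and 47 with dF109 in T3M-4, and in AsPC-1 the counts ranged from 0 (without A62T CB-6644 replicate 1) to 32 and from 20 (without dF109 CB-6644 replicate 2) to 72, the highest both without the EV DMSO library.

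**Figure D5:**
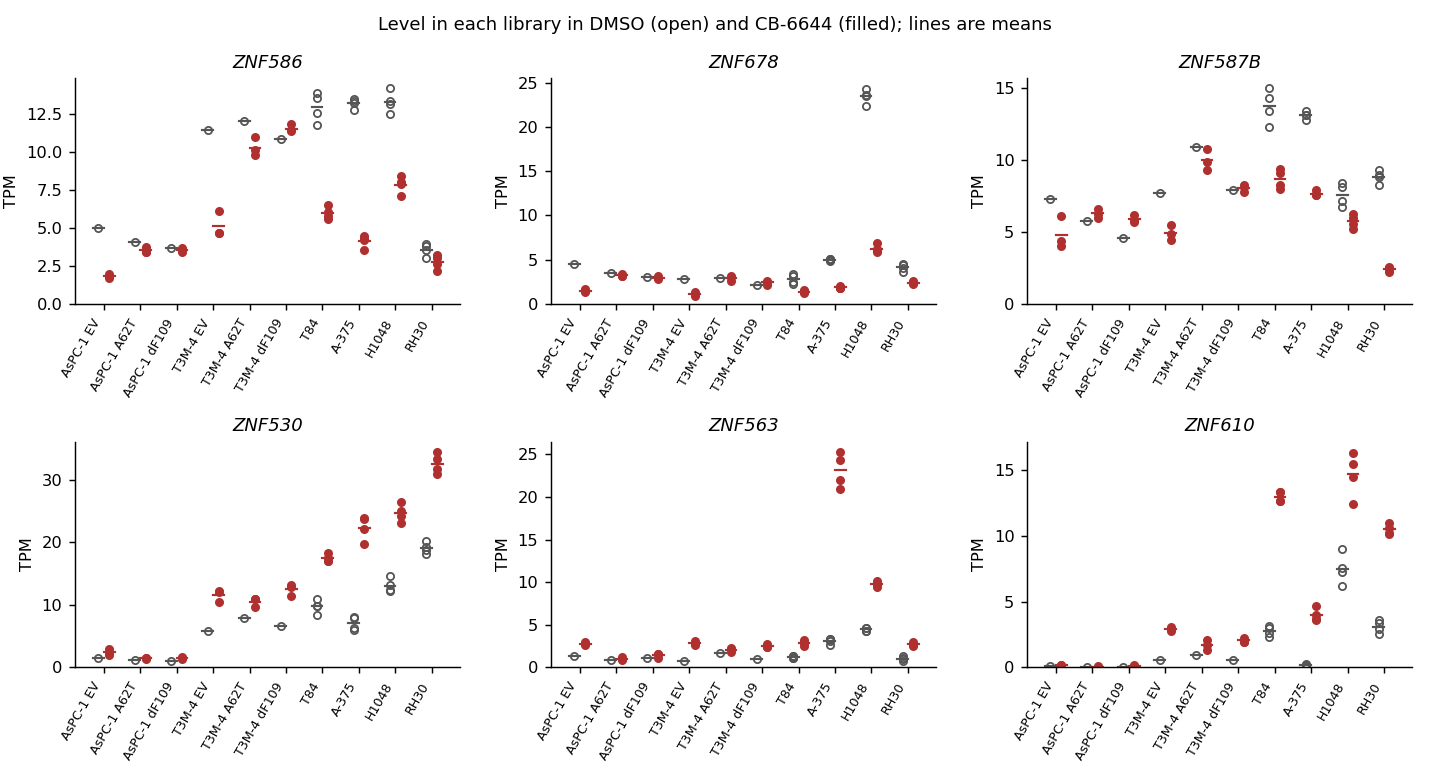
TPM of 6 members in every library of the CB-6644 experiments, with DMSO as open and CB-6644 as filled points and means as lines; the variant-carrying cells stand beside the EV cells of the same line. In T3M-4, ZNF586 lies at 4.67 to 6.13 TPM with EV and at 9.81 to 11.8 TPM with a variant in CB-6644, whereas ZNF610 and ZNF563 rise with CB-6644 in all of T84, A-375, H1048 and RH30.

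RUVBL1 knockout, in libraries that share none with the CB-6644 experiments, moved some of the same members, to a degree that differed between experiments. In AsPC-1 experiment 2, 43 of 139 members were higher and 27 lower (all genes 30% and 25.8%), and in experiment 3, 65 of 150 were higher and 14 lower (36.6% and 15.2%). T3M-4 gave 90 higher and 9 lower of 174 (45.9% and 14.6%), BxPC-3 10 and 9 of 159 (8.29% and 7.67%) and CFPAC-1 5 and 57 of 177 (6.54% and 37.3%). After scaling, CFPAC-1 gave 19 and 27 (all genes 19.2% and 16.9%), T3M-4 50 and 18 (26.4% and 29.8%), AsPC-1 experiment 3 35 and 23 (23.4% and 26.5%), and AsPC-1 experiment 2 45 and 35 (28.4% and 31.4%). Leaving out 1 library moved BxPC-3 to 2 higher (without RUVBL1 replicate 2) or 17 higher and 15 lower (without RUVBL2 replicate 3), and to 3 lower without sgRosa replicate 1. AsPC-1 experiment 3 had 43 higher without RUVBL1 replicate 2, and T3M-4 had 4 lower without RUVBL1 replicate 1. Of the 9 members lower in 6 lines under CB-6644, all 9 fell in AsPC-1 experiment 2, 7 in CFPAC-1, 4 in AsPC-1 experiment 3, 4 in T3M-4 and 1, ZNF586, in BxPC-3, and none rose. Of the 19 higher members, 10 of 18 tested rose in AsPC-1 experiment 2, 14 of 19 in experiment 3, 14 of 19 in T3M-4, 5 of 17 in BxPC-3 and 2 of 18 in CFPAC-1, where 2 fell. How all genes called in every CB-6644 line moved in these knockouts was not counted, so this overlap is a description and not a trait of the members. The KRAB split was present in AsPC-1 experiment 2 (median 0.21 with the pattern and −0.00 without, beside 0.02 for all genes), in experiment 3 (0.37 and 0.14, beside 0.16), in T3M-4 (0.42 and 0.25, beside 0.25) and in CFPAC-1 (−0.16 and −0.29, beside −0.20), and was small in BxPC-3 (0.02 and 0.01).

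The leading members differed between lines. In AsPC-1 experiment 2, ZNF707 rose from 11.1, 11.4, 11.5 and 11.6 TPM to 27.4, 28, 29.2 and 30.1 TPM (log2 change 1.26 ± 0.11, adjusted p = 1.5e-07) and ZNF608, which lacks the KRAB pattern, fell from 10.7, 11.1, 12.4 and 15.3 TPM to 3.64, 3.71, 3.82 and 3.93 TPM (−1.48 ± 0.14, adjusted p = 4e-07). In experiment 3, ZNF550 rose from 2.21, 2.25, 2.46 and 2.46 TPM to 5.09, 5.68, 7.31 and 8.49 TPM (1.17 ± 0.13), and ZNF771 fell from 5.54, 6.07, 6.86 and 6.92 TPM to 2.2, 2.39, 2.82 and 3.5 TPM (−0.99 ± 0.14). ZNF610 led the rises in T3M-4, as it had under CB-6644, from 0.207, 0.261, 0.42 and 0.484 TPM to 2.33, 2.41 and 2.81 TPM (1.39 ± 0.13, adjusted p = 1.3e-07). ZNF711 led the falls there, from 2.89, 3.12, 3.15 and 3.49 TPM to 1.32, 2.02 and 2.13 TPM (−0.57 ± 0.14). In CFPAC-1, ZNF789 fell from 11.8, 17.8, 18.4 and 18.7 TPM to 4.3, 6.75, 8.7 and 10.5 TPM (−1.08 ± 0.20, adjusted p = 0.00065), although it was among the members higher in 6 lines under CB-6644. The leading riser there was ZNF614 (0.40 ± 0.12). In BxPC-3, ZNF586 fell from 5.6, 6.53, 7.11 and 8.73 TPM to 3.72, 4.01, 4.16 and 5.11 TPM (−0.60 ± 0.12, adjusted p = 0.003) and ZNF596 rose (0.80 ± 0.16).

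The AsPC-1 experiments can be compared because their libraries differ. Of 139 members tested in both, 34 were higher in both, which is 79.1% of the 43 in experiment 2 and 56.7% of the 60 in experiment 3 (all genes 73.2% and 59%). Another 11 were lower in both, or 40.7% of 27 and 84.6% of 13 (all genes 45.9% and 76.6%), and 1 was called in opposite directions. Those lower in both included ZNF511, ZNF552, ZNF586, ZNF587B and ZNF551.

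RUVBL2 knockout used the same sgRosa libraries as RUVBL1 knockout in AsPC-1 experiment 3, T3M-4, BxPC-3 and CFPAC-1, so agreement between the 2 knockouts is not independent. In AsPC-1, 52 members were higher and 10 lower (all genes 32.2% and 11%), and in T3M-4, 71 and 10 (39.3% and 15.2%). After scaling these became 31 and 19 (18.9% and 21.9%), and 40 and 24 (24.7% and 28.3%). CFPAC-1, with 2 libraries, had 0 higher and 15 lower (2.83% and 9.26%), and 2 higher at an unadjusted p under 0.05 and 2 after scaling. The 15 became 0 without the first RUVBL2 library and 26 without the sgRosa replicate 4. BxPC-3 had 1 higher and 11 lower (4.27% and 5.48%), and scaling gave 1 and 16 (7.59% and 6.43%). The 11 became 0 without sgRUVBL2 replicate 3 and 25 without sgRUVBL2 replicate 2. ZNF707 led the rises in T3M-4, from 7.29, 13.9, 14.6 and 15.1 TPM to 26.1, 28, 33.3 and 35.3 TPM (1.25 ± 0.17, adjusted p = 8.7e-06), with ZNF551 as the leading fall (−0.59 ± 0.10). ZNF597 led in AsPC-1, from 1.64, 1.83, 2.02 and 2.08 TPM to 4.13, 4.2, 4.71 and 5.13 TPM (0.94 ± 0.11), and ZNF771 fell (−0.69 ± 0.14). The leading falls were ZNF579 in CFPAC-1 (−0.99 ± 0.23) and ZNF587B in BxPC-3 (−0.62 ± 0.17).

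KLF5 knockout moved few members, and few of them in more than 1 experiment. AsPC-1 had 15 higher and 2 lower of 145 in experiment 1 (all genes 17.1% and 8.81%) and 15 and 4 of 150 in experiment 3 (15.4% and 12.3%). Of the 15 higher in each, 3 were shared (20% of each list), namely ZNF605, ZNF615 and ZNF627, whereas 53.7% and 57.6% of all genes higher in either experiment were shared. ZNF627 rose by 0.60 ± 0.14 and 0.56 ± 0.12, ZNF605 by 0.60 ± 0.18 and 0.60 ± 0.11, and ZNF615 by 0.68 ± 0.16 and 0.51 ± 0.16. ZNF703, a corepressor of the NET family known from luminal breast cancer, was lower in both. Its libraries held 104 and 106 TPM in sgRosa and 70.2 to 88.9 TPM (median 81.1, n = 6) in sgKLF5 in experiment 1 (−0.38 ± 0.09), and 69.5, 74.5, 77.5 and 83 TPM against 29.6, 34.8, 63.8 and 67.5 TPM in experiment 3 (−0.71 ± 0.19). The sgKLF5 libraries all lay below sgRosa in both, but 2 of those in experiment 3 were close to it. Experiment 1 has 2 sgRosa libraries, and its 15 became 3 without replicate 2 of them and 25 without sgKLF5 replicate 4. Experiment 3 gave 9 higher without sgRosa replicate 2.

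T3M-4 had 1 higher and 0 lower of 163 in experiment 1 (3.26% and 2.46%), and 17 and 2 of 174 in experiment 2 (23.4% and 11.2%), with none shared. With 1 member called in experiment 1, the overlap of members cannot be judged. Of all genes higher, 78.3% of those in experiment 1 and 10.7% of those in experiment 2 were shared. Of all genes lower, 77.8% and 16.3% were. The T3M-4 experiment 1 counts became 13 higher and 22 lower without sgKLF5 replicate 2 and 5 and 16 after scaling (9.45% and 10.5% of all genes). In experiment 2 the 17 became 34 without sgRosa replicate 3 and 11 without sgRosa replicate 4. BxPC-3 had 3 higher and 0 lower of 166 (8.09% and 8.1%), with 2 lower at an unadjusted p under 0.05 and 0 after scaling, and 18 and 4 of 159 (21% and 13.6%), sharing ZNF771 (0.88 ± 0.20 and 0.57 ± 0.18). Of all genes higher in BxPC-3, 47.4% of those in experiment 1 and 16.3% of those in experiment 2 were shared. Of all genes lower there, 55.4% and 34.3% were. The 3 became 0 without sgRosa replicate 2, and the 18 became 11 without sgKLF5 replicate 1 and 28 without the third RUVBL2 library. SUIT-2 had 0 and 0 of 162 (2.94% and 1%), 5 and 0 at an unadjusted p under 0.05, and 0 and 0 after scaling. CFPAC-1 had 2 higher and 9 lower of 177 (3.26% and 13%), 4 and 3 after scaling (8.45% and 6.91%), and the 9 ranged from 2 to 17 when 1 library was left out, without sgKLF5 replicate 1 and without RUVBL1 replicate 1.

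CHD4 is the ATPase of the NuRD complex, a corepressor that some zinc finger proteins recruit. Its knockout in AsPC-1 gave 15 members higher and 28 lower of 142 (23.3% and 26.7%), and 23 higher without sgCHD4 replicate 2. ZNF524 fell from 14, 14.6, 15.3 and 16.4 TPM to 5.53, 6.58, 6.66 and 7.7 TPM (log2 change −1.08 ± 0.10, adjusted p = 4e-06). ZNF579 rose from 9.41, 9.67, 9.82 and 10.9 TPM to 15.2, 15.2, 16.2 and 17.1 TPM (0.63 ± 0.08, adjusted p = 5.4e-05). CHD4 messenger RNA itself was 0.28 higher, with overlapping libraries. After scaling, CHD4 knockout gave 19 and 28 (25.8% and 26.7% of all genes). Knockout of CDK1, which is essential in the cell cycle, gave 14 calls higher and 11 lower over 4 lines (6.78% and 3.08% of gene tests), and that of RPA3, of the replication protein A complex, 42 and 6 over 6 comparisons (6.25% and 3.57%), of which 26 higher came from T3M-4 experiment 2 (all genes 18.4%) and 13 from CFPAC-1 (8.17%). The 26 became 2 without RPA3 replicate 2 and 47 without sgRosa replicate 3, and the 13 became 0 without RPA3 replicate 1. SERPINB5 knockout gave 0 and 0 of 139 (0.0172% in each direction, limma), with 5 and 5 at an unadjusted p under 0.05 and 0 and 0 after scaling.

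Over the 23 comparisons of KLF5, RUVBL1 and RUVBL2 knockout and CB-6644 without a variant, which share some controls, ZNF627 was called higher in 14, ZNF707, ZNF629, ZNF614 and ZNF622 in 13 and ZNF596 in 12 of the 18 in which it was tested. None of these was called lower in TPM. ZNF586 and ZNF787 were called lower in 13, and ZNF587B, ZNF511, ZNF551 and ZNF552 in 12, with ZNF511 called higher in 2. In all, 19 members were higher and 10 lower in at least 10 comparisons, 89 were called in both directions, and ZNF671 was never called in the 7 in which it was tested. The same counts were not made over all genes, so these are a description and not a trait of the members.

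The partners through which KRAB proteins act moved in both directions, as genes in general did. Of 21 genes of the TRIM28, HUSH and heterochromatin machinery, 8 were higher and 10 lower in CB-6644 in A-375 (all genes 51.5% and 29.7%). The counts were 10 and 7 in T84 (47.2% and 24.2%), 7 and 9 in H1048 (53.9% and 24%) and 8 and 7 in RH30 (50.4% and 27.3%). AsPC-1 gave 8 and 5 (47.2% and 17.2%) and T3M-4 3 and 3 (19.1% and 15.2%). The median change of the list lay below that of all genes in each line. SETDB1 fell in A-375 (−0.79), RH30 (−0.43), T84 (−0.42), H1048 (−0.41) and AsPC-1 (−0.24), with −0.23 in T3M-4, where the call was not made. The HP1 genes CBX1 and CBX3 fell in all 6 lines, with changes from −0.69 to −0.14 and from −0.44 to −0.12. Genes of the list that rose, 8 in A-375 and 10 in T84, are not named here. The falls of SETDB1, CBX1 and CBX3 therefore do not describe the whole list. TRIM28 itself fell in A-375 (−0.21), was called higher in RH30 (0.12, below the median of 0.13 for all genes) and was not called in the other 4 lines. In RUVBL1 knockout the list gave 5 higher and 10 lower in AsPC-1 experiment 2 (all genes 30% and 25.8%) and 10 and 4 in experiment 3 (36.6% and 15.2%). T3M-4 gave 8 and 3 (45.9% and 14.6%), BxPC-3 0 and 4 (8.29% and 7.67%) and CFPAC-1 0 and 12 (6.54% and 37.3%). The direction of the list differed between experiments, as did that of all genes. Whether these levels have a part in those of the members was not tested.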

How the data were processed

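Bulk RNA-seq of 183 human cell line libraries was used. The authors pseudoaligned single-end reads with kallisto to the hg38 transcriptome, summed transcripts to genes with tximport, removed low-abundance transcripts at a limit not given in the sources used here, and deposited TPM values in 8 tables. TPM keeps no read depth, and the strand setting is not given in the sources used here. Members and gene lists were chosen with earlier results of these data known.

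Groups of a line and experiment were fitted together with limma 3.58.1 (R 4.3.3, trended variance) on log2(TPM + 1), for genes that averaged 1 TPM or more across the libraries of a fit, with Benjamini-Hochberg adjustment over all genes and a threshold of 0.05. A fold change on this scale understates that of low genes. Control libraries were sgRosa or DMSO of the same line and experiment, with the DMSO libraries of 3 vectors pooled in AsPC-1 and T3M-4, which assumes that vectors do not differ in DMSO. Alternatives were a pseudocount of 0.1, no filter, median-of-ratios scaling, only the groups compared, a replicate block, leaving out each library, and DMSO of the same vector. The looser KRAB pattern, the split at 5 TPM and the split by chromosome were added after seeing the data. Positions and proteins came from GENCODE (GRCh38), with 1 protein a gene, and promoters from RefSeq. ZNF720 was not found in the annotation. The KRAB pattern is a short match, so that members without it can hold a variant domain.

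Named members were, by rule, the 6 called higher and the 6 called lower in most of 23 comparisons, the leading member in each direction of each comparison, and the 5 with the highest level and the 5 with the widest range over lines. Members called in all 6 lines, holders of a promoter word, and ZNF605, ZNF615 and ZNF703 were named after their values were seen. The fit was tested on simulated data: of 200 genes changed by 0.5 and by 1 on the log2 scale, 85.5% and 94.5% were called in T84 (12042 and 12054 genes), 29% and 86.5% in T3M-4 with EV, and 0% and 4.5% for KLF5 in T3M-4 experiment 1.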

Additional observations from a re-analysis of the deposited data

Results flagged for a closer look

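In 107 sets, each of 1 named member in 1 group of 4 to 10 libraries, 2 held a library far from the rest, and chance flags about 1 in 20 such sets. ZNF707 stood at 7.29 TPM in sgRosa replicate 4 of T3M-4 experiment 2, below the other 3 libraries at 13.9 to 15.1 TPM. ZNF789 stood at 11.8 TPM in sgRosa replicate 4 of CFPAC-1, below 17.8 to 18.7 TPM in the others. The low library widens the rise of ZNF707 and narrows the fall of ZNF789 named in the report, and the groups do not overlap with it.

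The response to CB-6644 differed between T84, A-375, H1048 and RH30 for 165 members, by limma's F test of line by treatment. Of all members, 28 were called higher in at least 1 and lower in at least 1 of these lines. The share of all genes called in both directions was not counted. ZNF703 spanned the widest range, from −0.57 to 1.53 on the log2 scale (interaction adjusted p = 2.1e-18). ZNF583 ranged from −0.40 to 1.18, ZNF559 from −0.94 to 0.44, ZNF584 from −0.34 to 1.04 and ZNF556 from −0.81 to 0.44. In CB-6644, 65 and 62 members differed between EV and A62T and between EV and dF109 in AsPC-1, and 84 and 52 in T3M-4.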

How the results depend on the processing

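Counts are summed over the comparisons of a kind. After median-of-ratios scaling, 45 calls were lower for KLF5, 74 higher for RUVBL2, 23 lower for CDK1, 15 lower for RPA3, 318 lower for CB-6644 without a variant, and 99 higher and 46 lower for CB-6644 with a variant. With only the groups compared in the fit, 16 were lower for RUVBL2, 22 lower for CDK1, 11 higher for RPA3, and 179 higher and 4 lower for CB-6644 with a variant. Without a filter, 13 were lower for KLF5 and 3 for CB-6644 with a variant, and with DMSO of the same vector the latter gave 163 higher and 4 lower. The cause was not tested. Whether replicate numbers pair the libraries is not settled here. The deviations of same-numbered libraries from their group means had a median correlation from −0.29 (SUIT-2) to 0.06 (RH30) by fit. Single pairs reached 0.49 in T3M-4 experiment 2. With the replicate block, 74 calls were lower for KLF5, of which 49 came from T3M-4 experiment 1, and 13 for RPA3. Higher KLF5 calls then went from 15 to 30 in AsPC-1 experiment 1, from 3 to 6 in BxPC-3 experiment 1 and from 1 to 7 in T3M-4 experiment 1.

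Leaving out 1 library gave 59 to 88 higher and 14 to 43 lower for KLF5, 191 to 222 and 103 to 125 for RUVBL1, 108 to 134 and 31 to 60 for RUVBL2, 13 to 23 and 21 to 32 for CHD4, 7 to 28 and 5 to 13 for CDK1, 18 to 63 and 3 to 9 for RPA3, and 0 to 0 in both directions for SERPINB5. It gave 504 to 551 and 198 to 212 for CB-6644 without a variant, 189 to 330 and 4 to 10 with one, 67 to 97 and 125 to 214 for EV against a variant, and 185 to 187 and 160 to 165 for the F tests. No leading member changed sign past the threshold, but scaling turned the majority of calls from higher to lower in H1048 (92 and 51 to 50 and 73), for members called in every CB-6644 line (19 and 9 to 10 and 20) and for CDK1 (14 and 11 to 13 and 23), and from lower to higher for CFPAC-1 KLF5 (2 and 9 to 4 and 3). All genes turned likewise in H1048, from 53.9% higher and 24% lower to 35.2% and 40%. Over every CB-6644 line they were not counted after scaling. Among leading members, 145 values kept their call and 5 lost it under other settings, as did 410 and 5 when 1 library was left out.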
